A study of Mus musculus with 4 samples.

Results

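The T cell subset genes are 9 genes whose products divide T cells into lineages and states: Cd4, Cd8a, Cd8b1, Foxp3, Il2ra, Tcf7, Tox, Tbx21 and Gata3. They were chosen by symbol, and all 9 symbols were rows of the table of non-malignant cells, out of 16349 genes. Sarcomas grown as allografts in the hind limb of mice were profiled by single-cell RNA sequencing of 3′ ends, in which each RNA molecule carries a unique molecular identifier (UMI). The labels give all samples the same genotype, which includes Trp53flox/flox, and the background strain 129/SvJae, without saying whether host or tumor cells carry the alleles. The vehicle group (PBS) and the digoxin group each held 2 mice. Digoxin, a cardiac glycoside that blocks the sodium pump, was given by intraperitoneal injection at 2 mg/kg, dissolved in DMSO and diluted in PBS. Injections were 24 h apart and tumors were taken after 4 doses. The labels' protocol mentions plating of dissociated tumor cells for culture, without saying whether the sequenced cells had been plated. DMSO is not named for the vehicle, so a difference between groups cannot be told apart from an effect of the solvent.

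Helper T cells and most regulatory T cells carry the co-receptor CD4, which binds MHC class II, while cytotoxic T cells carry CD8, a dimer of the products of Cd8a and Cd8b1 that binds MHC class I. Some innate-like T cells and dendritic cells carry CD8 made of the alpha chain alone. Foxp3 is the lineage factor of regulatory T cells, which suppress immune responses in tumors and carry the high-affinity interleukin 2 receptor chain encoded by Il2ra. Tcf7 encodes TCF-1, a factor of naive, memory and stem-like T cells. Tox is a factor of T cell development and of T cells under lasting antigen contact. Tbx21 encodes T-bet, the factor of type 1 helper cells that also acts in NK cells, and Gata3 is the factor of type 2 helper cells and is also used by a part of regulatory T cells.

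All 9 genes are protein coding in the annotation of build mm10. Cd8b1 (chr6:71322788-71337494, plus strand) and Cd8a (chr6:71373427-71379173, plus strand) are neighbours with 35932 bases between them, and Cd4 lies on the same chromosome (chr6:124864692-124888221, minus strand). Foxp3 (chrX:7573644-7595245, plus strand) is X-linked. Il2ra (chr2:11642807-11693193, plus strand) and Gata3 (chr2:9857078-9890034, minus strand) share a chromosome. Tcf7 (chr11:52252371-52283014, minus strand) and Tbx21 (chr11:97098071-97115331, minus strand) share another, and Tox lies at chr4:6686353-6991557 on the minus strand.

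RefSeq promoters of build GRCm38.p6, the same assembly as mm10, matched 6 of the 9 genes, without Cd4, Cd8b1 and Tox. The 250 bases before the most upstream RefSeq start in the table are shown for 4 genes that the results turn on. Of these, Cd8a, Foxp3 and Il2ra belong to the pairs found together most above the number expected from their shares. Tbx21 is the gene that was higher in NK cells than in T cells. The Foxp3 window precedes a RefSeq start that lies inside the longer gene span given above. Capitals mark matches to TATAAA or GGGCGG on either strand.
Cd8a, chr6:71373177-71373426, plus strand: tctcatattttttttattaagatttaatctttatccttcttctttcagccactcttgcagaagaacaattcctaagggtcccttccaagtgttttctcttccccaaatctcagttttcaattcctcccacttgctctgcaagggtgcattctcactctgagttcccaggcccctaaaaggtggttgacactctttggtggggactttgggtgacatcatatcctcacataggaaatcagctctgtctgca
Foxp3, chrX:7579426-7579675, plus strand: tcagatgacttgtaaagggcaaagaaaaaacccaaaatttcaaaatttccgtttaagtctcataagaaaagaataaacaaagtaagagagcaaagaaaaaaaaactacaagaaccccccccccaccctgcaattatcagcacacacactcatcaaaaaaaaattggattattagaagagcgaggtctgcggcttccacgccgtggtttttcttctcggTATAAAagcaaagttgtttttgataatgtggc
Il2ra, chr2:11642542-11642791, plus strand: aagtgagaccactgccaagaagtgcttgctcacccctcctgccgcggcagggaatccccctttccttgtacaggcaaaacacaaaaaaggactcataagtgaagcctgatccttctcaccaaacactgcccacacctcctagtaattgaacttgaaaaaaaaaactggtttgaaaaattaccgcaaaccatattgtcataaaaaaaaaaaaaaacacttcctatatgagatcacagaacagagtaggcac
Tbx21, chr11:97115332-97115581, minus strand: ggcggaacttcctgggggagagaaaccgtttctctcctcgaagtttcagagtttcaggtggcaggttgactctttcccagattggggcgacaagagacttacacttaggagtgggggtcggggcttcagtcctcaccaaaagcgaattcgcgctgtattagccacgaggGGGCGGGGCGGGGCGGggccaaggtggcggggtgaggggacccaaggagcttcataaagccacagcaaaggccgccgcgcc
Foxp3 held 1 TATAAA, which 12.4% of 32851 promoters held in a window of this length. Tbx21 held 3 overlapping GGGCGG, a motif in 32.7% of the promoters. The motifs and the 4 genes shown were chosen with results of these data known. None of the 6 promoters held the forkhead motif TGTTTAC, the TCF motif CTTTGA, the T-box motif GGTGTGA, the GATA motif AGATAA or the STAT motif TTCNNNGAA, which 3.17%, 13.8%, 3.33%, 9.99% and 7.02% of all promoters held, so these letters were not in these windows. The G and C content was 42.8% for Cd8a, 37.6% for Foxp3 and 42.4% for Il2ra, and 60.8% for Tbx21, 70.0% for Gata3 and 76.0% for Tcf7, against a median of 52.4% over all promoters. The 3 genes of lower content held 0, 6 and 3 CpG dinucleotides and the other 3 held 16, 19 and 37, around a median of 6.

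The deposited T cell type held 579 cells, 183 and 110 with vehicle and 155 and 131 with digoxin, and the NK type held 504. Median depth was 7244 to 8231.5 UMIs per T cell and 10992 to 12449 per NK cell. Scrublet, a caller of doublets, marked 10 T cells and 20 NK cells. Of the 1083 T and NK cells, 5 had a barcode that also occurred in another mouse. Vehicle replicate 2 stood apart from the other mice: its T cells had a mean of 0 CPM of Xist (CPM scales each cell to a total of 1000000 UMIs) and 100 CPM of the Y-linked Ddx3y, against 1010 to 1290 and 1.38 to 3.49 CPM in the others. These are the patterns of male and female cells, and the labels do not give the sex of the mice. The cells of this library carry another number in their names and were assigned to vehicle replicate 2 by the deposited cell table. The 5 T cell markers (Cd3d, Cd3e, Cd3g, Trac and Trbc2) were each found in 83.6% to 93.8% of the T cells. In NK cells they ranged from 0.992% (Cd3e) to 43.7% (Trbc2), with at least 1 of them in 59.9%, and Ncr1, an NK cell receptor, was found in 99% of NK cells. An exception was the 35 T cells deposited as Unknown T cell. Cd3d, Cd3g, Trac and Trbc2 each had a UMI in 1 of these 35 cells and Cd3e in 0, while Flt3, Xcr1 and Clec9a, genes of dendritic cells, had one in 91.4%, 82.9% and 88.6%. Macrophage RNA was present in the T cells of every mouse: the summed mean CPM of 7 macrophage markers was 926 and 3140 with vehicle and 1680 and 1980 with digoxin, and none of the 7 was at 0.

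The co-receptor genes marked T cells and also a population that is not T cells. Cd4, with a mean of 110 ± 24.7 CPM (SD, n = 4 mice) in T cells, was found in 35.2% of them (Wilson 95% interval 31.5% to 39.2%, counting error only) and in 3 of 504 NK cells. Cd8a was found in 16.1% and Cd8b1 in 16.2% of T cells, against 2 and 0 NK cells, and 0 of 504 allows a share of cells with a UMI of up to 0.595% (3 counts, counting error only). Macrophages, at a median of 16412 UMIs per cell, had a UMI of Cd4 in 1.22%, Cd8a in 0.299% and Cd8b1 in 0.318% of 10363 cells. Whether these UMIs came from free RNA, doublets or the macrophages themselves was not tested. Types were named from clusters of these same cells, so levels by type are a description without a test.

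All 3 co-receptor genes were also present in the type deposited as Microglia (182 cells), at levels that overlapped with T cells or lay above them. Cd8b1 had 282 and 428 CPM with vehicle and 172 and 169 with digoxin in that type, above the 61.1 to 157 CPM of T cells in every mouse. Cd8a had 120 ± 33.4 CPM there and 91.8 ± 36.3 in T cells, with overlapping mice. Cd4 had 96.8 and 65.6 CPM with vehicle and 93.9 and 90.2 with digoxin there, below T cells of the same mouse in 3 of 4 mice. The cells named Microglia had a UMI of Siglech, Bst2, Tcf4 and Irf8 in 100% and of Ccr9 in 96.2% of cells, markers of plasmacytoid dendritic cells. Cd3d was found in 6.04% of them and Cd3e in 5.49%.

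Foxp3 had 98.4 ± 64.0 CPM in T cells, and the next highest type, Microglia, had 8.28 ± 12.9, below T cells in every mouse. Foxp3 was in 26.6% of T cells, 3 of 504 NK cells and 0.241% of macrophages. Il2ra was in 39.2% of T cells at 110 ± 27.0 CPM and in 12.1% of NK cells at 13.1 ± 5.73. Il2ra was highest in the 63 cells of the Dendritic type, at 146 ± 53.8 CPM with a UMI in 63.5%, and T cells overlapped with it. All of these 63 cells had a UMI of Ccr7, a gene of migrating dendritic cells.

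The 4 transcription factors other than Foxp3 were shared by T and NK cells in different proportions. Tbx21 had 80.9 and 73.0 CPM with vehicle and 71.9 and 61.6 with digoxin in NK cells, above every mouse's T cells, where it had 12.9 to 45.7. A UMI of Tbx21 was present in 52.0% of the NK type against 18.8% of the T cell type. Tcf7 did not separate them, at 64.3 ± 17.7 CPM in T cells and 60.9 ± 13.1 in NK cells, nor from the Dendritic type at 69.8 ± 22.2. Tox was higher in T cells, at 66.4 ± 15.8 CPM against 35.4 ± 4.70, with no overlap between mice. Gata3 had 70.7 ± 21.6 CPM in T cells and 33 ± 7.23 in NK cells, with overlapping mice. Within each mouse it was higher in T cells, at 72.4 and 86.5 CPM with vehicle and 84.1 and 39.6 with digoxin. The NK cells of these mice had 35.5, 42.1, 26.9 and 27.5. Malignant cells, at a median of 52867 UMIs, carried Tcf7 at 11.5 ± 1.59 CPM, with a UMI in 37.8% to 47.0% of cells by mouse, below the T and NK cells of every mouse.

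**Figure D1:**
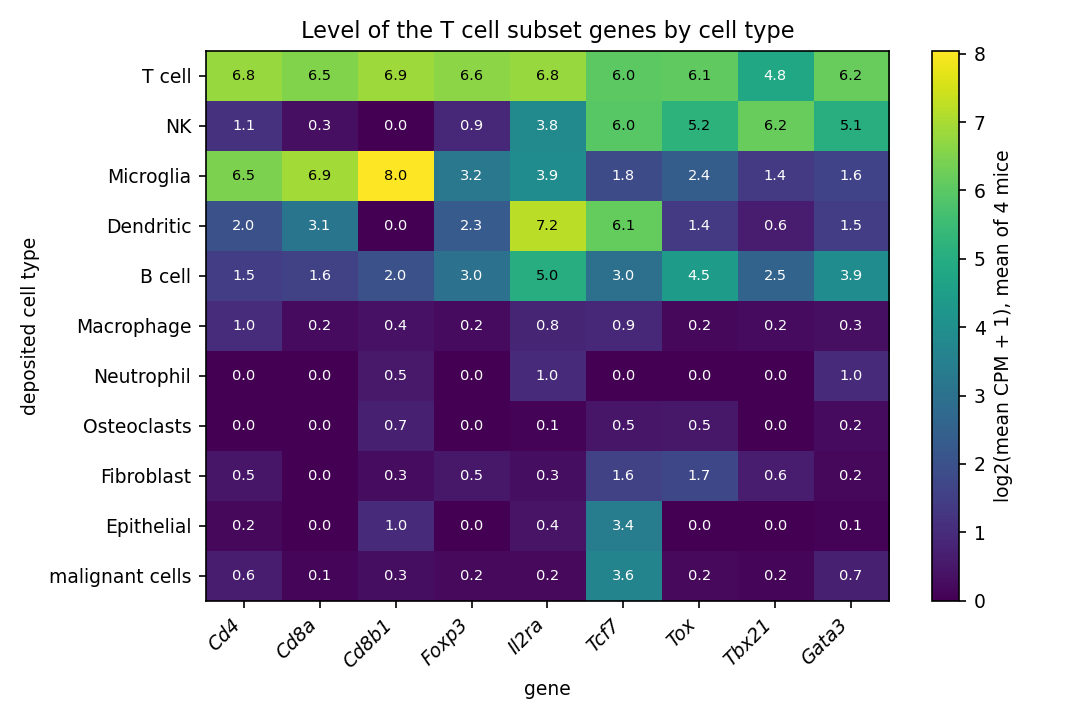
Level of each T cell subset gene (columns) in each deposited cell type (rows), as the log2 of 1 plus the mean CPM of the 4 mice. The row of T cells is filled for all 9 genes, NK cells share Tcf7, Tox, Tbx21 and Gata3, and the row of cells named Microglia holds the 3 co-receptor genes.

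Within T cells, the deposited sub-clusters were separated by these genes. They were built from the expression of these cells, so the values describe the names and test nothing. In Treg (175 cells) Foxp3 had a UMI in 85.7% of cells and Il2ra in 73.7%, against 1.2% and 35.3% in Th (167 cells). Cd4 was in 67.1% of Th cells and 51.4% of Treg cells, and Cd8a and Cd8b1 were each in 91.0% of the 78 CD8 cells.

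The 124 cells deposited as NKT had Cd4 in 1 cell, Cd8a in 12.9% and Cd8b1 in 2.42%. Of the T cell receptor genes, Trac was in 75.8% and Trbc2 in 100% of these cells. Of 7 gamma-delta genes, the constant genes of the gamma chain Tcrg-C1, Tcrg-C2 and Tcrg-C4 were in 28.2%, 55.6% and 59.7%, and Trdc, the constant gene of the delta chain, was in 37.1%. Trdv4 was in 1 cell and Sox13 and Blk in 0. NK cells had Trdc in 76.4%, Tcrg-C4 in 13.5%, Tcrg-C1 in 0.595% and Tcrg-C2 in 0.198%. At least 1 of the 7 gamma-delta genes was in 79.0% of NKT, 28.2% of CD8, 22.8% of Th and 2.29% of Treg cells. The 8 NK markers were in 20.2% (Gzma) to 96.0% (Klrd1) of NKT cells, with Ncr1 in 36.3%, and Klrd1 was also in 65.4% of CD8 cells and 92.3% of the cells named Microglia.

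Among the 4 sub-clusters other than Unknown T cell, Tcf7 was lowest in Treg, where Foxp3 was highest, and it was lowest there in each of the 4 mice. It had a UMI in 5.71% of Treg cells, at a median depth of 9194 UMIs, and in 33.5% of Th, 39.7% of CD8 and 46.0% of NKT cells, at medians of 6142 to 8164.5. Over all cells Tox was in 25.6% of CD8 to 39.5% of Th cells, Gata3 in 21.8% of CD8 to 43.4% of Treg cells and Tbx21 in 12.6% of Th to 30.6% of NKT cells, but the order of the sub-clusters differed between mice for all 3 genes. Tbx21 was in 36.5% and 9.09% of NKT cells with vehicle and 41.0% and 9.09% with digoxin, and in digoxin replicate 2 NKT had the lowest share of the 4. Of the T cells with a UMI of Tbx21, 78.0% had only 1. Macrophage markers also differed, with a summed mean CPM of 3930 in Treg, 998 in Th, 558 in NKT and 1250 in CD8 cells. Their part in these levels was not tested.

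**Figure D2:**
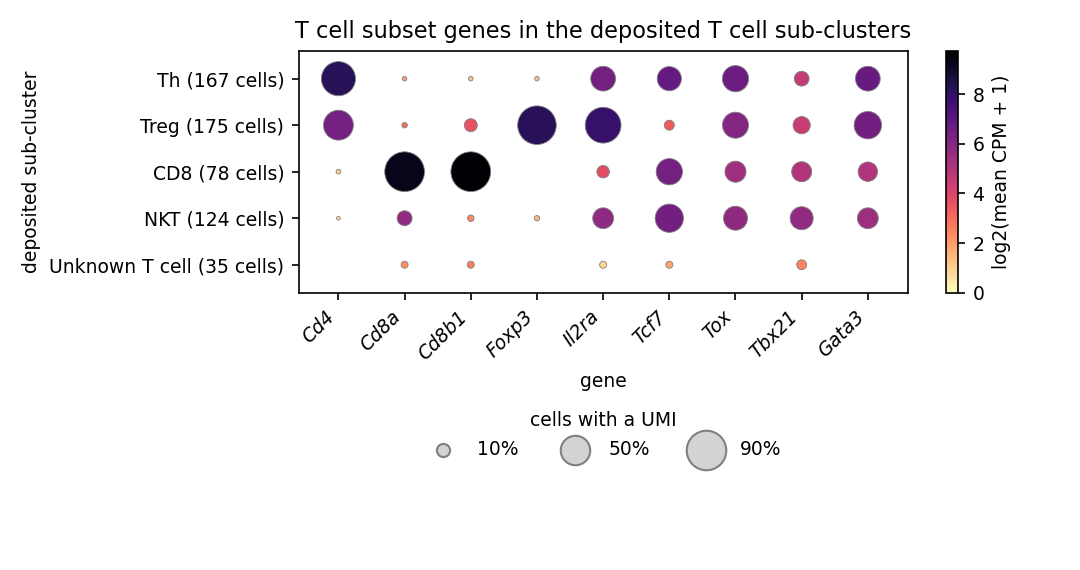
Each T cell subset gene (columns) in the 5 deposited T cell sub-clusters (rows). The area of a circle is the share of cells with a UMI and its colour the log2(mean CPM + 1). Cd8a and Cd8b1 fill CD8, Foxp3 and Il2ra fill Treg, Cd4 fills Th and Treg, and the row of the 35 Unknown T cell cells is nearly empty.

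To ask which genes occur in the same T cell, the cells with both genes of a pair were counted beside the number given by multiplying the shares of the 2 genes within each mouse, summed over the mice. This was repeated after thinning each cell to 4000 UMIs, since deep cells show more of every gene. Of the 36 pairs, the thinned ratio of observed to expected was above 1 in all 4 mice for 8 and below 1 in all 4 for 12, and 16 were mixed. Without the 35 Unknown T cell cells, which carry almost none of these genes, the counts were 7, 12 and 17. Cells of 1 mouse are not replicates, and no p-value is given.

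The strongest pair was Cd8a with Cd8b1. The 2 genes were found together in 32 and 8 cells of the vehicle mice and in 14 and 20 cells of the digoxin mice, 74 cells in all against 16.2 expected, and the thinned ratio was 4.16 to 9.09 by mouse. In the cells named Microglia, which hold the same 2 genes, 28 cells had both against 26.6 expected, and the thinned ratio was 0.958 over all mice and 0.509 to 1.2 by mouse. The T cell type mixes cells with and without CD8, and there the genes were paired, while in the other type they met about as often as the product of their shares.

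T cells with 1 of the CD8 genes alone fell in different sub-clusters. Of the 19 cells with Cd8a and no Cd8b1, 15 were NKT and 3 were CD8. Of the 20 cells with Cd8b1 and no Cd8a, 14 were Treg, 11 also had Foxp3 and 11 also had Cd4. Over all Treg cells Cd8b1 was near the floor, with 24 UMIs in 17 cells, against 595 UMIs in 71 CD8 cells. Siglech, which marks the other population rich in Cd8b1, had a UMI in 0 of the 20 cells, and 0 were marked as doublets. Among all 579 T cells Siglech was in only 7 and only 10 were marked, so 0 of 20 says little. At least 3 of the 7 macrophage markers were found in 6 of the 20 cells. The origin of these cells was not tested.

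Cd4 and the CD8 genes were seldom found in the same cell. Cd4 and Cd8a were in the same cell in 1 and 0 cells of the vehicle mice and 0 and 1 of the digoxin mice, 2 cells in all against 31.4 expected. Cd4 and Cd8b1 were together in 13 cells against 32.1 expected, with thinned ratios of 0.0497 to 0.311 by mouse. Of the 13 cells with Cd4 and a CD8 gene, 11 were Treg, at a median depth of 16130 UMIs against 7765 over all T cells.

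Foxp3 cells carried the genes of regulatory T cells in several combinations. Foxp3 and Il2ra were together in 29 and 35 cells with vehicle and 28 and 21 with digoxin, 113 cells against 62.5 expected, and the thinned ratio was 1.44 to 2.65 by mouse. Of the 154 T cells with Foxp3, 58 had both Il2ra and Cd4, 55 had Il2ra without Cd4, 22 had Cd4 without Il2ra and 19 had neither. Foxp3 occurred with Gata3 in 72 cells against 51.1 expected, above expectation in all 4 mice. With Cd4 the thinned ratio was 0.874 to 1.5 by mouse and on both sides of 1. Among the 154 cells, 69 had at least 3 of the 7 macrophage markers, where 13.1% to 32.8% of all T cells by mouse had them. Among cells of at least 4000 UMIs, Foxp3 cells had a median depth of 6632.5 UMIs in vehicle replicate 2 and 8122 to 14821 in the other mice. The part of these markers in the pairs was not tested.

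Foxp3 and Tcf7 rarely shared a cell. They were found together in 5 and 1 cells with vehicle and 1 and 3 with digoxin, 10 cells against 36.6 expected, and the thinned ratio was 0.00713 to 0.547. These 10 cells were deep, at a median of 22776 UMIs. Tcf7 was also below expectation in all 4 mice with Il2ra (38 cells against 58.6), Gata3 (35 against 46.8) and Tbx21 (25 against 30.2). It was above expectation in all 4 mice with Cd8a (36 against 26.5) and Cd8b1 (38 against 26.3).

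Tox and Gata3 went with Cd4. Cd4 and Tox shared 92 cells against 69.7 expected and Cd4 and Gata3 shared 87 against 65.2, in each case above expectation in all 4 mice. Tox was below expectation in all 4 mice with Cd8a (26 cells against 30.6) and with Cd8b1 (28 against 31.5). Tbx21 and Gata3, the factors of type 1 and type 2 helper cells, shared 41 cells against 33.9, and the thinned ratio of 0.920 to 1.68 lay on both sides of 1. Cd8a with Tbx21 was above 1 in all 4 mice by a small margin, from 1.01, and in 3 of 4 without the Unknown T cell cells.

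**Figure D3:**
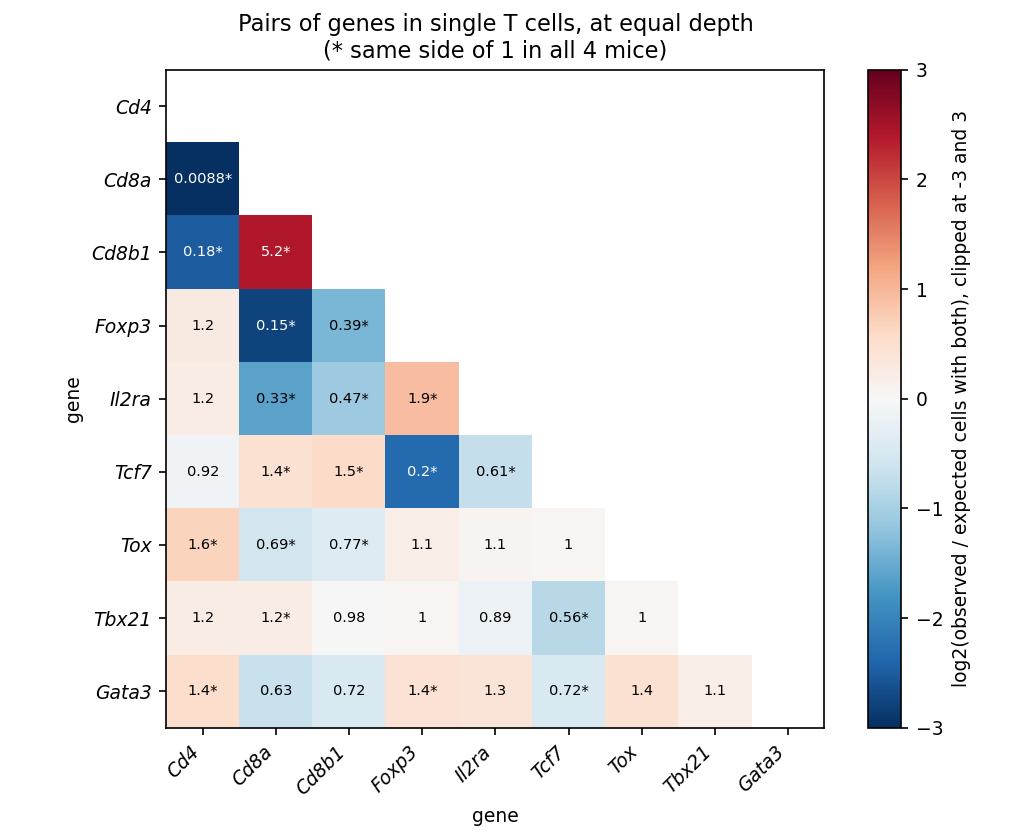
Observed over expected number of T cells with both genes of a pair, at 4000 UMIs per cell, with expected cells computed within each mouse and summed. Colour is the log2 of the ratio, clipped at -3 and 3, numbers are the ratio, and an asterisk marks pairs on the same side of 1 in all 4 mice. Cd8a with Cd8b1 stands highest, and Cd4 with Cd8a, Cd8a with Foxp3 and Foxp3 with Tcf7 are among the lowest.

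Over all 9 genes, the 579 T cells showed 132 on and off patterns, 52 of them in a single cell. No UMI of any member was found in 56 T cells, of which 31 were Unknown T cell cells, 15 NKT, 7 Th and 3 Treg. The next most frequent patterns were Tcf7 alone in 23 cells and Cd8a with Cd8b1 alone in 18. In NK cells Tcf7 and Tox occurred together above expectation in all 4 mice (thinned ratio 1.06 to 2.15), and Tcf7 with Tbx21 (0.842 to 0.985) and Tbx21 with Gata3 (0.750 to 0.962) below it in all 4. The unthinned ratio of the last pair was 1.05 over all NK cells.

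Among 7540 genes found in at least 10% of T cells, the gene most like Cd8a over the 579 cells was Cd8b1, with a Pearson r of 0.844 on the deposited log values and 0.829 to 0.862 by mouse. The cells share libraries and differ in depth, and r is given as a description. Next came Gzmk, a granzyme of memory-like cytotoxic cells, with r of 0.390 for Cd8a and 0.420 for Cd8b1, but 0.0592 and 0.00444 in vehicle replicate 2. Nkg7 followed for Cd8a (0.364) and Themis for Cd8b1 (0.332).

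The genes most like Foxp3 were Ikzf2, which encodes the factor Helios (0.574), Ctla4, the inhibitory receptor (0.570), and Neb, which encodes the muscle protein nebulin (0.560). All 3 were above 0.39 in every mouse. For Cd4 they were Hif1a (0.493), Tnfrsf4 (0.481) and Tnfsf8 (0.464), the last with r of 0.0364 in vehicle replicate 2. For Il2ra they were Capg (0.439), Maf (0.432) and Samsn1 (0.412). For Tcf7 they were Emb (0.385) and the ribosomal protein genes Rps29 (0.354) and Rplp2 (0.343). The highest r was 0.300 for Tox (Eea1), 0.223 for Tbx21 (Ctsw) and 0.289 for Gata3 (Fam46a), too weak in sparse counts to read.

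Digoxin was compared with vehicle in T cells over 8930 genes, with mean CPM per mouse tested on the log2(CPM + 1) scale by limma. No gene passed an adjusted p of 0.05 (0%). Without adjustment 382 genes (4.28%) had a limma p under 0.05 and 409 (4.58%) an edgeR p, and edgeR and DESeq2 on summed UMIs also called 0 after adjustment. Of the 9 members 0 were called. The median log2 difference, digoxin minus vehicle, was 0.03 over the 9 and -0.02 over all genes tested. For 1 member both digoxin mice were lower than both vehicle mice, and for 0 both were higher, beside 19% and 14.3% of all genes. In means over all T cells of a mouse, fewer cells of a subset and less RNA per cell cannot be told apart.

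That member was Tox, with 67.3 and 86.4 CPM with vehicle and 48.0 and 63.7 with digoxin. The groups did not overlap, and the difference was -0.46 on the log2 scale, with an SE of 0.228 and a limma adjusted p of 0.979. Leaving out vehicle replicate 2 gave -0.28 and leaving out digoxin replicate 1 gave -0.26. Tcf7 had 72.4 and 39.0 CPM with vehicle and 66.2 and 79.4 with digoxin. Vehicle replicate 2 was low, the groups overlapped, and the log2 difference of 0.44 (SE 0.284) had a limma adjusted p of 0.979, and was 0 without vehicle replicate 2. Gata3 had 72.4 and 86.5 CPM with vehicle and 84.1 and 39.6 with digoxin, so that only digoxin replicate 2 was low. Tbx21 had 28.3 and 12.9 CPM with vehicle and 45.7 and 19.6 with digoxin, with digoxin replicate 1 the highest.

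Foxp3 varied most between mice. Its level was 51.6 and 193 CPM with vehicle and 66.5 and 83.0 with digoxin, and the high value was that of vehicle replicate 2. The log2 difference was -0.42 (SE 0.469, limma adjusted p = 0.979). It was -1.36 without vehicle replicate 1 and 0.52 without vehicle replicate 2, so its direction depended on 1 mouse. Either of these fits leaves a lone vehicle mouse, so only the differences are given. Il2ra had 97.3 and 118 CPM with vehicle and 144 and 82.2 with digoxin, with a log2 difference of 0.03 that turned to -0.15 without the cells carrying at least 3 macrophage markers.

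The co-receptor genes overlapped between groups. Cd4 had 118 and 92.4 CPM with vehicle and 142 and 89.0 with digoxin, a log2 difference of 0.11 (SE 0.240). Cd8a had 143 and 58.3 against 80.0 and 85.5 CPM, and Cd8b1 had 157 and 61.1 against 94.3 and 150. In both CD8 genes vehicle replicate 2 was lowest. Without vehicle replicate 1 the log2 difference of Cd8b1 was 0.95, and without vehicle replicate 2 it was -0.40, each with a lone vehicle mouse left.

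The share of T cells with a UMI, thinned to 4000 UMIs with 1, 0, 1 and 1 shallower cells left out, was compared next. Foxp3 was found in 10.9% and 38.0% of T cells with vehicle and in 13.8% and 15.3% with digoxin (18.6%, 50.9%, 22.6% and 22.1% unthinned). Gata3 was the 1 member of 9 whose groups did not overlap, where 19.8% of all genes were lower in both digoxin mice and 14% higher, at 20.0% and 25.1% against 18.1% and 13.7%, with p = 0.33 by a two-sided exact permutation test, the smallest that 2 against 2 mice can give. Adjusted over the 9 members, this p was 1.00.

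**Figure D4:**
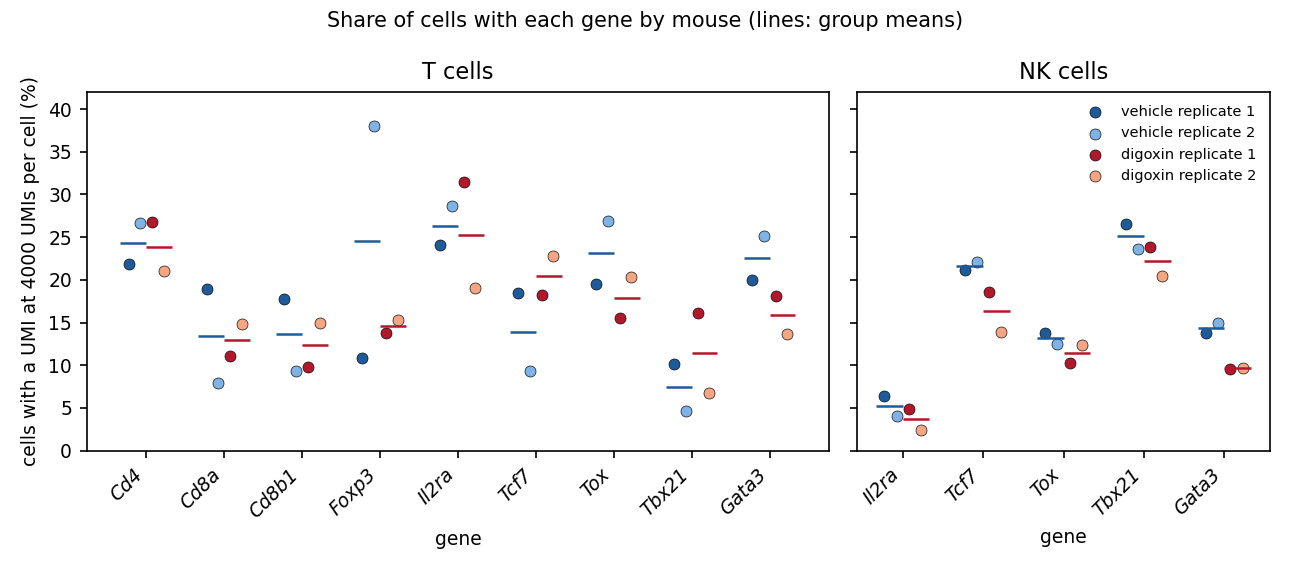
Share of T cells (left) and NK cells (right) with a UMI of each gene, at 4000 UMIs per cell. Each point is a mouse, and the short lines are the means of the 2 mice of each group. Foxp3 in vehicle replicate 2, at 38.0%, lies far above the other mice, and Tcf7, Tox and Gata3 in NK cells are lower in both digoxin mice.

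Cells were also sorted into co-receptor classes at 4000 UMIs. Cd4 without a CD8 gene was found in 21.2% and 26.0% of T cells with vehicle and 26.1% and 20.8% with digoxin. A CD8 gene without Cd4 was found in 22.1% and 9.74% against 12.2% and 18.0%. At full depth a CD8 gene had a UMI in 18 of 124 NKT cells and 1 of 35 Unknown T cell cells, and Cd4 in 1 and 0. Neither Cd4 nor a CD8 gene was found in 56.1% and 63.5% of T cells with vehicle and 61.0% and 61.1% with digoxin. Whether for lack of the RNA or of depth, most T cells had no co-receptor UMI after thinning (45.9%, 46.4%, 49.7% and 48.1% had neither at full depth). Both were found in 0.649% and 0.774% against 0.610% and 0.189%, the class whose groups did not overlap (exact permutation p = 0.33, 1.00 adjusted over 4 classes), at a level near that of 1 cell.

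The deposited sub-clusters overlapped between groups in each of 5 cases. Treg made up 19.1% and 59.1% of the T cells with vehicle and 25.8% and 26.7% with digoxin, and vehicle replicate 2 had the lowest shares of Th (17.3%), NKT (10.0%) and CD8 cells (7.27%). Inside Treg, Foxp3 was nearly level, at 263 and 322 CPM with vehicle and 258 and 311 with digoxin. Vehicle replicate 2, with the highest Foxp3 mean, also had the largest share of Treg cells. Treg was defined from the expression of these cells, so its share and its Foxp3 level are not independent, and the part of either in the mean was not tested. Treg cells of this mouse also had the highest summed macrophage markers, at 4460 CPM against 3080 to 3960.

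**Figure D5:**
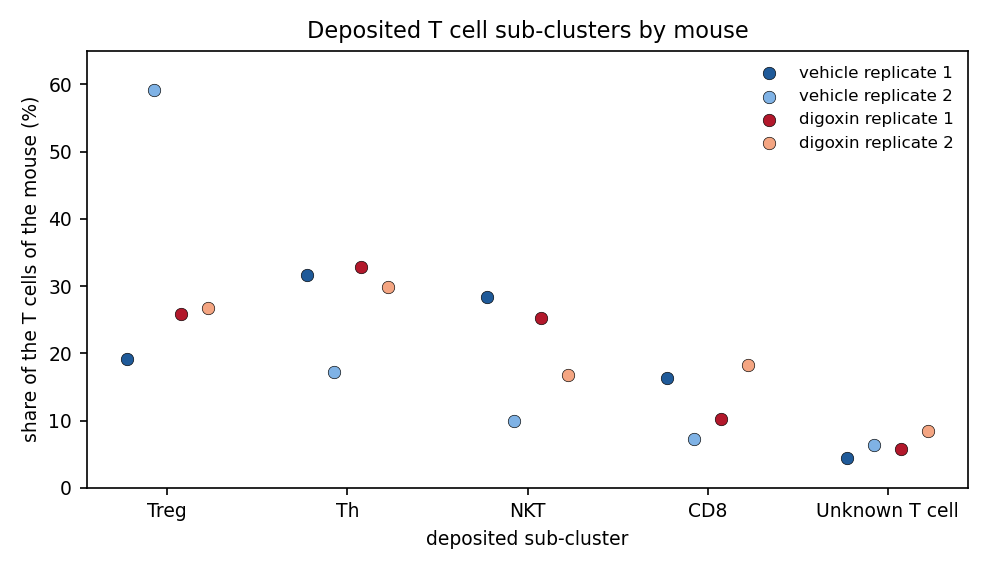
Share of the T cells of each mouse in each deposited sub-cluster, with 1 point per mouse. Vehicle replicate 2 has 59.1% Treg cells, above the 19.1% to 26.7% of the other mice, and the 2 groups overlap in every sub-cluster.

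Inside the sub-clusters with at least 10 cells in every mouse, members were set against all 8930 genes without a test. In Treg 5 of 9 members had both digoxin mice under the lower vehicle mouse and 1 had both over the higher one, beside 17% and 15.6% of all genes. Cd4 had 88.7 and 115 CPM with vehicle and 59.2 and 61.4 with digoxin in Treg cells, and Tox had 73.2 and 82.4 against 35.8 and 66.7. Gata3 had 115 and 93.6 against 90.5 and 55.9. The share of Treg cells with a UMI of Cd4 was 48.6% and 56.9% with vehicle and 47.5% and 48.6% with digoxin. The other genes below, Cd8a and Cd8b1, were under 20 CPM, with a UMI in 3 and 17 of 175 cells. The count of 5 thus includes genes near the floor. Tbx21 was the gene above, at 14.1 and 9.96 CPM against 43.2 and 20.8. The 5 T cell markers summed to 2680 and 3460 CPM with vehicle and 2190 and 2690 with digoxin in Treg. Their part in the Treg values was not tested.

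In Th, Tox had 108 and 150 CPM with vehicle and 75.8 and 78.5 with digoxin, lower in both digoxin mice as in Treg. Tbx21 in Th had 19.3 and 6.5 CPM against 32.4 and 21.0, higher in both digoxin mice as in Treg. It had 7 and 2 UMIs against 11 and 5 in Th, in 10.3% and 5.26% against 19.6% and 10.3% of cells. In Treg it had 8 and 5 UMIs against 15 and 8, so both comparisons of Tbx21 rest on few UMIs. Tox and Tbx21 overlapped between groups in NKT, Tox at 42.4 and 101 CPM against 46.8 and 71.3. Counts in Th were 2 members below and 1 above, beside 18.5% and 15.4% of all genes, and in NKT they were 3 and 1, beside 16.1% and 16%. The other member below in Th was Foxp3, with a UMI in 2 of 167 cells. In NKT, Cd8a and Cd8b1 were among those below, with a UMI in 16 and 3 of 124 cells. In NKT Gata3 had 63.1 and 57.8 CPM with vehicle and 24.9 and 12.0 with digoxin, on 30 and 7 UMIs against 9 and 2. The member above in NKT was Tcf7, at 67.9 and 89.9 CPM against 93.7 and 126. Other markers separated the groups there too. The summed macrophage markers were 341 and 93.7 CPM in NKT with vehicle and 552 and 1310 with digoxin, and the 5 T cell markers were 5000 and 5140 against 4570 and 4270. The 4 cycling genes were 649 and 777 against 399 and 106, and the part of these markers in the NKT values was not tested. These means rest on 11 to 65 cells per mouse.

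In NK cells 5 members passed the filter on low UMI counts: Il2ra, Tcf7, Tox, Tbx21 and Gata3. Limma called 7 of 9147 genes there (0.0765%) and edgeR 17 (0.186%), with 6.28% and 6.1% at an unadjusted p under 0.05, and both called 0 of the 5 members. In 3 of the 5 both digoxin mice were lower than both vehicle mice and in 0 higher, beside 16.9% and 19.1% of all genes. The median log2 difference was -0.43 over the 5 and 0.02 over all genes tested.

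Tcf7 in NK cells had 64.7 and 75.0 CPM with vehicle and 60.5 and 43.6 with digoxin. The groups did not overlap, and the log2 difference of -0.43 (SE 0.197) had a limma p of 0.0463 and an adjusted p of 0.780. Gata3 had 35.5 and 42.1 against 26.9 and 27.5 CPM, again without overlap, and the log2 difference of -0.49 (SE 0.223) had a limma p of 0.0451 and an adjusted p of 0.780. Neither passed the threshold, and the difference of Tcf7 was -0.20 without digoxin replicate 2. Tbx21 had the values given above and a log2 difference of -0.21 (limma adjusted p = 0.857). Il2ra, at 20.5 and 11 against 14 and 6.87 CPM, and Tox, at 39.6 and 36.2 against 28.6 and 37.0, overlapped between groups. In thinned shares 3 of the 5, Tcf7, Tox and Gata3, were lower in both digoxin mice and 0 higher, beside 17.6% and 18.6% of all genes. Tox, at 13.8% and 12.5% with vehicle and 10.3% and 12.4% with digoxin, was nearly level in the replicate 2 mice. Gata3 was in 13.8% and 15% of NK cells with vehicle and 9.55% and 9.70% with digoxin, and Tcf7 in 21.2% and 22.1% against 18.6% and 13.9% (exact permutation p = 0.33 each, 0.556 adjusted over 5). NK cells with at least 3 macrophage markers made up 13.2% and 17.4% with vehicle and 14.0% and 31.2% with digoxin. The summed level of the 7 markers in NK cells was 577 and 591 CPM with vehicle and 642 and 1040 with digoxin, higher in both digoxin mice, and their part in these values was not tested.

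The effects in T and NK cells were compared directly in 9793 genes. Limma found 0 genes whose effect differed (0%, with 3.53% at an unadjusted p under 0.05), and edgeR found 1 (0.0102%), Thbs1, which is no member. The effect on Tcf7 was 0.87 higher in T cells than in NK cells on the log2 scale (SE 0.370, limma unadjusted p = 0.0361, adjusted p = 0.999), that on Tbx21 was 0.82 higher (SE 0.403, limma unadjusted p = 0.0633, adjusted p = 0.999), and that on Gata3 differed by 0.05 (SE 0.361, limma adjusted p = 0.999). Vehicle replicate 2 had the lowest T cell values of Tcf7 (39.0 CPM) and Tbx21 (12.9 CPM), and the differences of these genes are not given without it. The differences of Il2ra and Tox were 0.59 and -0.24 (limma adjusted p = 0.999 each). Cd4, Cd8a, Cd8b1 and Foxp3 had 0 to 10 UMIs per mouse in NK cells and did not pass the filter there, so no difference between the types is read for them.

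Other genes of the same programmes were read in T cells from 9 lists, and limma called 0 genes of any list, there or in NK cells. Of 16 genes of the T cell receptor and its signalling, 8 were lower in both digoxin mice and 1 higher, with a median log2 difference of -0.08. For this and the lists that follow, the shares over all 8930 genes are 19% lower and 14.3% higher, and the median is -0.02. The smallest p-values were those of the co-receptors Cd6, at 180 and 252 CPM against 136 and 162, and Cd5, at 138 and 234 against 111 and 132 (limma adjusted p = 0.979 each). Of 10 genes of naive and central memory cells, 2 were higher and 2 lower, near the shares of all genes, with a median of 0.30. Klf2, a factor of recirculating T cells, had 264 and 415 CPM against 208 and 214 (limma adjusted p = 0.979).

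Of 12 regulatory T cell genes 1 was lower in both digoxin mice, where 19% of all genes were, with a median of -0.24. This was Ccr8, a chemokine receptor of tumor regulatory T cells, at 11 and 13.6 CPM against 6.90 and 0, and Ikzf2 had 452 and 1160 against 544 and 452, high in vehicle replicate 2 as Foxp3 was. Most genes of this list were highest in vehicle replicate 2, such as Ctla4 at 481 and 1250 CPM against 654 and 599. The median of the list therefore leans on that mouse. Of 12 genes of the type 1 programme 1 was higher and 1 lower (median 0.10), no more than the shares of all genes: Il12rb2, an interleukin 12 receptor chain, had 26.9 and 18.5 against 35.8 and 41.7, and the chemokine receptor Cxcr3 had 123 and 191 against 121 and 104. Of 6 tested type 2 genes 1 was lower (median -0.08). It was Areg, a growth factor made by regulatory T cells among others, at 159 and 119 CPM against 65.2 and 17.3, lower by a log2 difference of -1.99 (SE 0.473) that did not pass, with a limma adjusted p of 0.872, and Il1rl1 overlapped.

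The 4 tested type 17 genes (median -0.12, smallest p for Ahr and Ccr6) and the 5 gamma-delta genes (median -0.18, Tcrg-C4 and Trdv4) overlapped between groups in all cases. Of 10 exhaustion genes 1 was lower (median 0.03), and Nr4a2 and Entpd1, which had the smallest p-values, overlapped. Of 10 genes of interleukin 2 signalling 1 was higher and 1 lower (median 0.08), with Bcl2, the survival gene, at 296 and 147 CPM against 413 and 313 and Socs1 overlapping.

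The cell cycle genes Mki67, Top2a, Birc5 and Ccnb1 were counted at 4000 UMIs, and a UMI is not read as a cycling cell. Without thinning, at least 1 of the 4 had a UMI in 60.3% of T cells, 67.9% of NK cells and 64.1% of macrophages. The share was 28.6% in the Dendritic type and 21.4% in the cells named Microglia. The part of macrophage RNA in the T cell shares was not tested. After thinning, at least 1 had a UMI in 56.9% and 44.8% of Foxp3 cells with vehicle and 34.9% and 46.5% with digoxin. For cells with a CD8 gene the shares were 54.2% and 49.2% against 52.9% and 54.6%. For Cd4 cells without Foxp3 they were 44.6% and 68.7% against 42.9% and 41.0%, lower in both digoxin mice, with 13 cells behind the highest value. T cells without Cd4, a CD8 gene or Foxp3, 172 cells counted without the Unknown T cell cells, had 42.4% and 59.6% against 34.8% and 33.2%. This share was also lower in both digoxin mice. Taken singly over all T cells, 19.8% of all genes were lower in both digoxin mice in thinned share and 14% higher. The summed level of the 4 cell cycle genes over all T cells was 670 and 577 CPM with vehicle and 375 and 450 with digoxin. In mean CPM 19% of all genes were lower in both digoxin mice and 14.3% higher.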

How the data were processed

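The submitters' processing notes name Cell Ranger 3.0.2, Seurat 3.0.2 and build mm10. Expression was deposited on a natural log scale, as ln(1 + UMIs per 10000 UMIs of that cell), and the deposited cell tables give the UMI count of each cell and the names of types and sub-clusters. From these, 100% of values above 0 gave whole UMI counts within 0.01. The per-sample columns of no sample numbered 0. CPM was computed per cell and averaged per mouse. Log2(mean CPM + 1) was tested with limma 3.58.1 (trended empirical Bayes, Benjamini-Hochberg at 0.05) on genes kept by filterByExpr, with edgeR 4.0.16 and DESeq2 1.42.0 on summed UMIs as alternatives. The interaction had a term per mouse. The limma fit and the thinning were tested on simulated data. Shares were the expected shares after thinning each cell to 4000 UMIs. Scrublet, run per mouse with an expected share of 0.06 through scanpy 1.11.5, marked 4.37% of all cells, and marked cells were kept. The labels do not say that mice of 1 number were paired. Named genes were the 9 members, the 3 genes of highest r with each, and the 2 of smallest p per list in T cells, of which 1 is not reported here, as is a part of the genotype. Genes chosen for their values are Thbs1 and those used as markers. The members and lists were chosen with earlier results of these data known. The number of cells gives shares a counting error, shown for Cd4 by the Wilson interval at 95% over the T cells of all mice. The error is wider in a single mouse, which has fewer cells. The interval covers neither depth nor differences between mice.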

Additional observations from a re-analysis of the deposited data

How the results depend on the processing

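With 2 mice a group, single mice moved the counts. Leaving out each mouse in turn, which leaves a lone mouse assumed to vary like the other group, gave 0 to 198 called genes in T cells (198 without vehicle replicate 1, 83 without vehicle replicate 2), 12 to 107 in NK cells and 3 to 282 for the difference between them. With the replicate block the counts were 57 in T cells and 23 in NK cells, although mice of 1 number did not vary together (r = 0.0608 in T cells and -0.0317 in NK cells over genes). In NK cells edgeR called 17 genes, and 0 were called without doublet-marked cells and 2 without cells carrying macrophage markers. For the difference between types edgeR called 1. No other count moved by over 1.5 times. None of the members was called under these alternatives, except Foxp3 and Cd8b1 without vehicle replicate 1.

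Several directions in T cells turned with 1 mouse. Without each mouse in turn, the log2 difference ranged from -0.23 to 0.44 for Cd4, -0.79 to 0.5 for Cd8a, -0.4 to 0.95 for Cd8b1, -1.36 to 0.52 for Foxp3, -0.38 to 0.43 for Il2ra and -0.98 to 0.09 for Gata3. The difference in the share of T cells with a UMI, in percentage points, ranged from -3.32 to 2.48 for Cd4, -5.88 to 5.11 for Cd8a, -5.42 to 3.08 for Cd8b1, -23.5 to 3.62 for Foxp3, -7.19 to 5.17 for Il2ra and -0.722 to 8.61 for Tbx21. For the classes it ranged from -2.8 to 2.58 for Cd4 alone, -6.98 to 5.34 for a CD8 gene alone, -0.523 to -0.101 for both and -2.44 to 4.93 for neither. Among the other settings, the log2 difference of Il2ra was -0.05 with CPM of summed UMIs and -0.15 without cells carrying macrophage markers. The share difference was 0.59 for Cd4 without those cells and 0.533 for Cd8a without thinning. The class of Cd4 alone gave 0.0657 without doublet-marked cells, 1.11 without cells carrying macrophage markers and 0.293 without the Unknown T cell cells, an alternative chosen after the data were seen. With 2 UMIs required, a CD8 gene alone gave 0.444 and both gave 0.108. The causes were not tested. At 2 mice a group an exact permutation test cannot pass, and at 4000 UMIs most T cells have no co-receptor UMI.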
